A study of Mus musculus with 31 samples.

Results

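Ionotropic glutamate receptors were followed through 10 of their subunit genes, Gria1, Gria2, Gria3, Gria4, Grin1, Grin2a, Grin2b, Grik1, Grik2 and Grik5, in RNA bound to tagged ribosomes of mouse sensory neurons. The 10 genes are rows of count tables that hold 55536 genes, and 8 further ionotropic subunit genes in those tables were kept apart. They were chosen by name from a list drawn up with their counts in these libraries already known, so their levels and fold changes are given as a description, without p-values of their own. The study used translating ribosome affinity purification (TRAP), in which ribosomes that carry a GFP-tagged L10a protein are pulled down and their RNA is sequenced. Cre libraries came from Nav1.8-Cre;L10a-eGFP-fl/fl mice and control libraries from L10a-eGFP-fl/fl mice, so all groups carried the floxed tag allele and the controls lacked the Cre that switches it on. Nav1.8 is the sodium channel encoded by Scn10a, so the tag marks neurons that have expressed that gene and leaves out sensory neurons that never did. Central axon samples were lumbar dorsal root with spinal cord, peripheral axon samples were sciatic nerve, and soma samples were lumbar dorsal root ganglia. Central axons were processed with somas as batch 1 and peripheral axons with other somas as batch 2, each as Cre and control. That gives 8 groups and 31 libraries, 4 per group and 3 for the controls of the peripheral axons. Age, sex, strain and treatment are not in the labels. The labels call the libraries biological replicates and do not say how many animals each holds or whether groups share animals.

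AMPA receptors, built from Gria1 to Gria4, carry most fast excitatory transmission, and the Gria2 subunit makes them nearly impermeable to calcium once its transcript is edited. NMDA receptors need the obligatory Grin1 subunit together with partners such as Grin2a or Grin2b, and admit calcium only when glutamate binds while the membrane is depolarised. Kainate receptors are formed by Grik1 to Grik3, with Grik4 and Grik5 as subunits that do not form channels alone. In the dorsal horn all these receptors act on the spinal neurons that sensory afferents contact, and kainate receptors with the GluK1 subunit, encoded by Grik1, are a known feature of small sensory neurons and their central endings. The central axon samples therefore hold a tissue whose own neurons use the same genes.

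The pore-lining stretch, given for 9 of the 10 genes, shows what joins them into a family and where the families part. In some of them, such as Gria2, it contains a codon that RNA editing can alter. Each sequence is 27 bases of coding sequence, 5′ to 3′ on the gene's strand, from the mouse genome build GRCm38 with GENCODE M21 transcripts. Capitals mark the codon of the Q/R site in AMPA and kainate subunits and of the asparagine (N) site in NMDA subunits. For Grik1 and Grik2 the stretch crosses an exon junction, and the position given is that of the capital codon.
Gria1 (chr11:57243082-57243108, + strand, exon 11): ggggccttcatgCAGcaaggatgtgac
Gria2 (chr3:80706899-80706925, − strand, exon 11): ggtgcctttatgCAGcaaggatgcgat
Gria3 (chrX:41610253-41610279, + strand, exon 11): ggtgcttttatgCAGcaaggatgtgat
Gria4 (chr9:4464125-4464151, − strand, exon 12): ggtgcctttatgCAAcaaggatgtgac
Grik1 (chr16:87940542-87940544, − strand, exon 13): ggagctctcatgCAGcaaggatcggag
Grik2 (chr10:49244329-49244331, − strand, exon 12): ggagctctcatgCAGcaaggttctgag
Grik5 (chr7:25022485-25022511, − strand, exon 15): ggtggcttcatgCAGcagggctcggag
Grin1 (chr2:25297374-25297400, − strand, exon 14): ggcgtcctgctcAACtctggcattggg
Grin2a (chr16:9653549-9653575, − strand, exon 8): ggcctggtcttcAACaattctgtgccc

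Gria2 and Gria3 had 25 of the 27 bases in common, as did Grik1 and Grik2, while Grin1 and Grin2a shared 12 and Gria2 and Grin2a only 6. All 7 AMPA and kainate genes have a glutamine codon at the Q/R site in the genome, and Grin1 and Grin2a have an asparagine codon at the N site. Gene counts hold no base calls, so how much of each transcript was edited was not measured.

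Libraries held between 3.60 M and 19.6 M counts in all (M for mega), and 3 counts, taken as the smallest detectable amount, correspond to 0.153 to 0.833 CPM (counts scaled by the library total). Levels below are CPM, and genes are compared with each other only as CPM per kb of exon length. Cre libraries had 12473 to 16509 genes with 10 or more counts, against 4934 to 7889 in the batch 1 soma controls, 7251 in central axon control replicate 3 and 9606 in peripheral axon control replicate 4. Scn10a averaged 410 ± 88.4 CPM (SD, n = 4) in Cre somas of batch 1, 174 ± 168 in Cre central axons and 8.00 ± 14.6 in central axon controls, but 370 ± 152 in the batch 2 soma controls, so control ganglia held sensory neuron RNA as well. The summed level of 9 spinal neuron markers was 125 to 392 CPM in Cre central axons and 191 to 732 in their controls, whereas it was 0.730 to 27.1 in Cre peripheral axons. The 6 Schwann cell markers summed to 6741 to 17377 CPM in Cre peripheral axons and to 307 to 585 in the Cre somas of that batch. In these bulk samples, fewer cells of a type and less RNA per cell cannot be told apart.

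**Figure D1:**
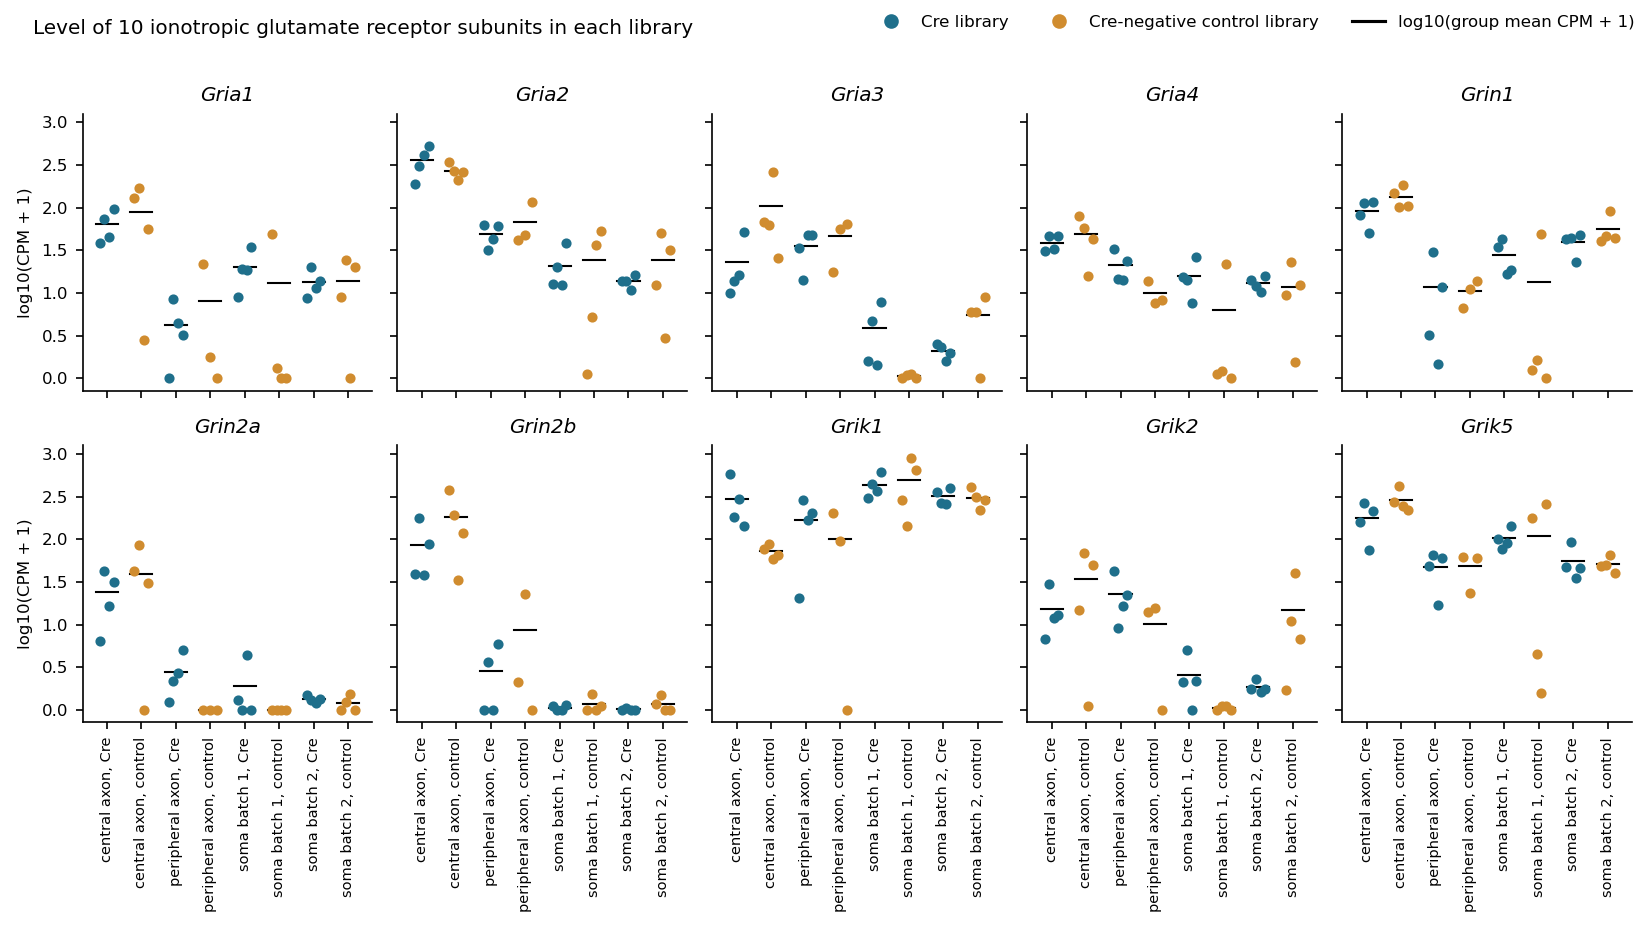
Level of each of the 10 subunit genes in every library, as log10(CPM + 1) on the vertical axis, with the 8 groups on the horizontal axis, Cre groups in blue, control groups in orange and a black line at the log10 of the group mean CPM plus 1. Grin2a and Grin2b sit at or near 0 in all soma groups, apart from Grin2a in batch 1 Cre soma replicate 3 (3.37 CPM). The 8 central axon libraries lie at the top of the Gria2 panel.

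Gria2 had the highest central axon mean of the AMPA genes per kb of exon, 23.2 CPM in Cre and 17.4 CPM in controls. It measured 189.7, 304, 412 and 534 CPM in the 4 Cre central axon libraries and 343, 266, 209 and 265 CPM in their controls. Cre peripheral axons had 61.8, 31.4, 41.5 and 59.8 CPM, and their controls 40.7, 46.4 and 117 CPM. In Cre somas Gria2 was at 11.8, 19.1, 11.4 and 37.3 CPM in batch 1 and 12.9, 12.8, 9.93 and 15.1 CPM in batch 2. All 8 central axon libraries thus lay above all other libraries, and Cre and control overlapped in both axon types.

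Gria1, a calcium-permeable partner of Gria2, had 37.9, 73.1, 44.9 and 96.4 CPM in Cre central axons. Their controls had 129, 168, 1.85 and 54.8 CPM, so control replicate 3 lay far below the other 3. Cre peripheral axons had 0, 7.44, 3.42 and 2.25 CPM, and no Cre soma library of batch 2 was as low, with 7.87, 19.0, 10.4 and 12.9 CPM. Per kb of exon Gria1 had the lowest mean of the AMPA genes in Cre peripheral axons, 0.542 CPM, against 3.13 for Gria2, 3.54 for Gria3 and 3.25 for Gria4.

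Gria3 showed another order. It was at 32.8, 13.1, 46.4 and 47.3 CPM in Cre peripheral axons and at 16.5, 55.2 and 64.2 CPM in their controls. In Cre somas of batch 2 it was at 1.56, 1.35, 0.611 and 0.973 CPM, below every nerve library. Cre central axons had 9.15, 12.9, 15.2 and 50.6 CPM, with replicate 4 apart, and the controls had 66.3, 61.9, 262 and 24.6 CPM. Gria3 was thus present in nerve whether or not a tag was there to pull on. Gria4, another calcium-permeable subunit, had means in the Cre groups of 38.1 ± 8.46 CPM in central axons, 20.5 ± 8.92 in peripheral axons, 14.9 ± 7.7 in batch 1 somas and 12.2 ± 2.43 in batch 2 somas (SD, n = 4 each). Its 32.1, 13.5, 13.4 and 22.9 CPM in Cre peripheral axons were all above the 13.0, 6.63 and 7.27 CPM of the controls.

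Grin1, the obligatory NMDA subunit, had 82.3, 114, 49.1 and 114 CPM in Cre central axons and 147, 101, 184 and 104 CPM in their controls. Cre somas followed with 33.6, 42.5, 15.8 and 17.5 CPM in batch 1 and 42.1, 43.0, 22.0 and 46.7 CPM in batch 2. Cre peripheral axons had 2.19, 29.4, 0.488 and 10.9 CPM, of which only replicate 2 reached the soma range. On the opposite strand, Grin1os overlaps 13.5% of the exon length of Grin1, and whether the counting used strand is not given in the sources used here.

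Grin2a and Grin2b, the glutamate-binding partners of Grin1, were found mainly in the central axon groups. Grin2b measured 37.9, 175, 36.9 and 86.2 CPM in Cre central axons and 381, 189.9, 32.4 and 116 CPM in their controls. The Cre somas held 2 counts of Grin2b over the 4 libraries of batch 1 and 1 count over the 4 libraries of batch 2. Grin2a was at 5.47, 41.2, 15.5 and 30.8 CPM in Cre central axons and at 40.9, 83.4, 0 and 29.6 CPM in controls, with control replicate 3 again low. Of the Cre soma libraries, batch 1 replicate 3 had the highest Grin2a level, 3.37 CPM, and the batch 2 libraries stayed between 0.204 and 0.499 CPM. In Cre peripheral axons Grin2a was at 0.243, 1.2, 1.71 and 3.99 CPM and Grin2b at 0, 2.66, 0 and 4.85 CPM. Peripheral axon controls had no Grin2a count, and Grin2b was at 1.1, 22.0 and 0 CPM there.

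Grik1 had another order of groups, with its highest means in somas. It measured 299, 441, 369.6 and 619.5 CPM in Cre somas of batch 1 and 352, 262, 258 and 393 CPM in those of batch 2. Cre central axons had 574, 179.9, 293 and 143 CPM, all above the 76.2, 87.1, 57.5 and 64.0 CPM of their controls. Cre peripheral axons had 19.7, 286, 167 and 202 CPM and their controls 204, 93.1 and 0 CPM. The groups overlapped in nerve, where replicate 1 of the Cre libraries was the low value and replicate 4 of the controls had no count. Per kb of exon Grik1 had the highest mean of the 10 genes in 7 of 8 groups, 64.3 in batch 1 Cre somas for example. In central axon controls it was the fifth with 10.6, below Grik5 with 56.1, Gria2 with 17.4, Gria1 with 14.6 and Grin1 with 13.8.

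Grik5, a kainate subunit that needs a partner such as Grik1 to form a channel, was at 157, 261, 73.9 and 214 CPM in Cre central axons and at 272, 421, 247 and 219.7 CPM in their controls. Cre somas had 100.2, 76.5, 90.0 and 139.9 CPM in batch 1 and 45.9, 91.2, 34.0 and 44.7 CPM in batch 2. Grik5 in Cre peripheral axons, with 47.7, 65.0, 16.1 and 58.6 CPM, overlapped with batch 2 somas. Grik2, which can form channels alone, was at 41.6, 8.1, 15.4 and 21.3 CPM in Cre peripheral axons and at 5.75, 29.0, 10.9 and 12 CPM in Cre central axons. In Cre somas it was between 0 and 3.99 CPM in batch 1 and between 0.611 and 1.29 CPM in batch 2, so all 8 Cre axon libraries exceeded all 8 Cre soma libraries. The batch 2 soma controls had 0.719, 9.87, 39.2 and 5.76 CPM of Grik2, so replicate 5 lay in the range of the Cre somas and the other 3 above it, and the batch 1 soma controls had 0 to 0.117 CPM.

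Placed in order of the group means, 9 of the 10 genes had their highest mean in a central axon group and Grik1 in the batch 1 soma controls. The 2 central axon groups overlapped for all 10 genes except Grik1. For Gria1, Grin2a and Grin2b, Cre central axons and the next lower group did not overlap. For Gria2 the break came between central axon controls and peripheral axon controls, and for Gria3 between Cre central axons and the batch 2 soma controls. Neighbouring groups overlapped throughout the order for Gria4, Grin1, Grik1 and Grik5.

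**Figure D2:**
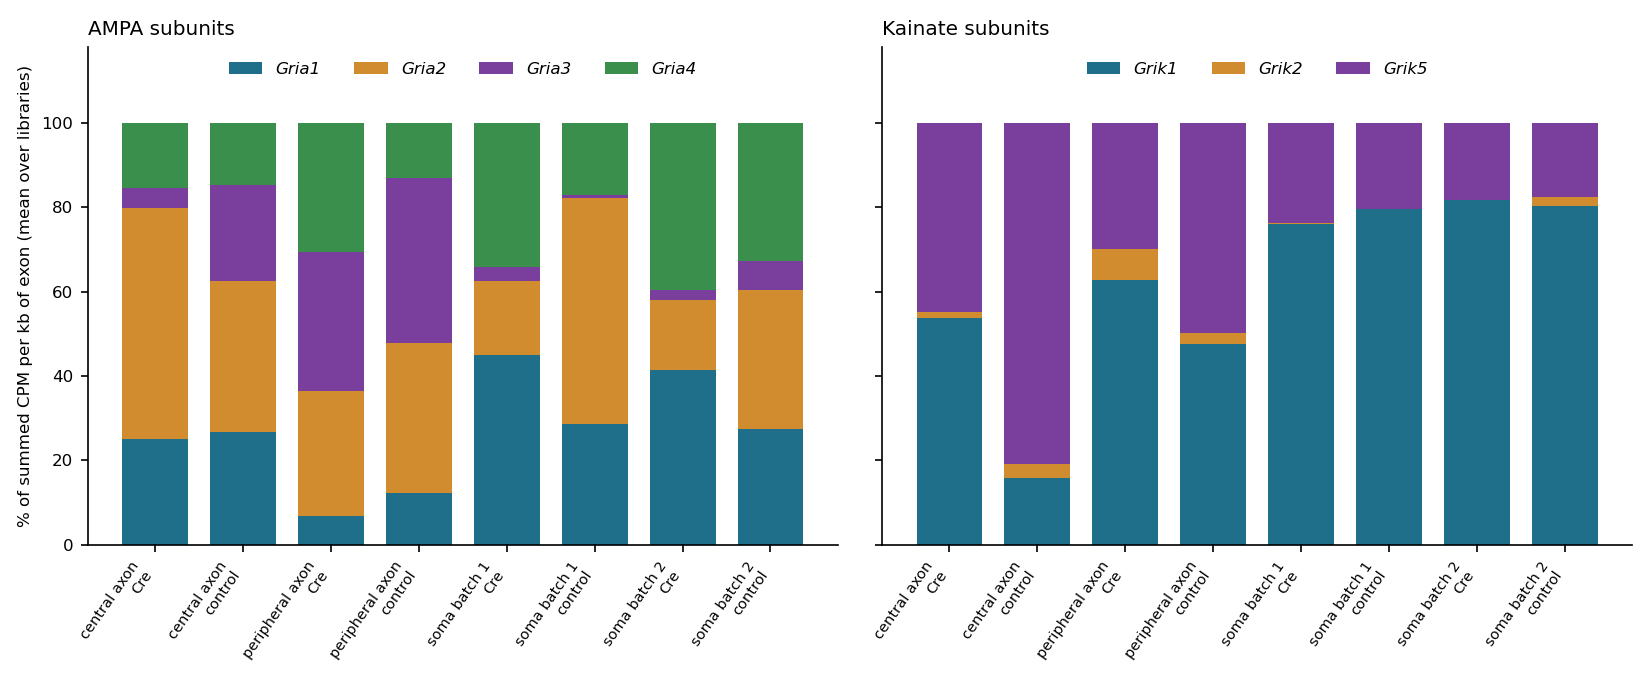
Makeup of the AMPA family (Gria1 to Gria4) and of the kainate members (Grik1, Grik2, Grik5) in the 8 groups, as the mean over libraries of each gene's percent of its family's summed CPM per kb of exon. Gria2 is 54.9% of the AMPA sum in Cre central axons and 17.5% in batch 1 Cre somas, and Grik1 is 15.7% of the kainate sum in central axon controls and 76.0% in batch 1 Cre somas.

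Among Cre libraries the makeup of the AMPA family differed between compartments. Gria2 made up 17.5% ± 1.62 of the family's summed CPM per kb in Cre somas of batch 1 and 16.7% ± 2.07 in those of batch 2. It was 54.9% ± 7.48 in Cre central axons, 35.9% ± 8.79 in central axon controls and 29.7% ± 2.33 in Cre peripheral axons (SD, n = 4 each). The soma controls had higher means, 53.7% ± 43.1 in batch 1 and 32.9% ± 17.7 in batch 2 (SD, n = 4 each). They spread widely, from 0.0991% to 100.0% in batch 1 and from 18.7% to 58.7% in batch 2. Cre somas reached 18.9% in both batches, so the ranges overlapped. In batch 1 soma controls Gria1 and Gria4 had at most 3 counts in 3 of the 4 libraries, so those shares rest on few counts. In Cre somas Gria1 was 45.0% ± 12.8 in batch 1 and 41.4% ± 10.1 in batch 2, and Gria4 was 34.2% and 39.6%. In Cre peripheral axons Gria1 was 6.71% ± 8.05 of the sum and Gria3 was 32.8% ± 11.9. Peripheral axon controls had 12.1% ± 19.9 for Gria1, 35.6% ± 12.2 for Gria2 and 39.1% ± 20.4 for Gria3 (SD, n = 3). Shares depend on the length used, because Gria2 has a long untranslated part: by coding length, an alternative chosen after seeing the data, Gria2 was 34.7% in batch 1 Cre somas, 74.5% in Cre central axons and 45.7% in Cre peripheral axons.

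The summed AMPA level was 41.9 ± 15.8 CPM per kb in Cre central axons, 50.2 ± 13.4 in their controls, 10.5 ± 2.74 in Cre peripheral axons and 7.13 ± 3.81 in batch 1 Cre somas. The 3 NMDA genes summed to 14.0 ± 6.23, 23.2 ± 6.79, 1.28 ± 1.43 and 2.87 ± 1.28 CPM per kb in the same groups. The 3 kainate genes summed to 79.5 ± 26.0, 69.1 ± 20.7, 35.8 ± 17.5 and 84.1 ± 24.5 CPM per kb (SD, n = 4 each). Per kb of exon, kainate genes therefore had the highest mean sum in each of these 4 groups. This order depends on the length used, as Gria2 has 15548 bp of exon against 6721 bp for Grik1 and 5168 bp for Grik5. Sums by coding length were not made. Grik1 supplied 76.0% ± 4.86 of the kainate sum in batch 1 Cre somas, 81.6% ± 8.62 in batch 2 Cre somas, 53.7% ± 23.3 in Cre central axons and 15.7% ± 2.02 in central axon controls, where Grik5 supplied 80.9% ± 3.51.

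Central axon Cre libraries were compared with central axon controls to ask which subunit RNA the tag recovers above the background of root and cord. Grik1 was the only gene of the 10 whose libraries did not overlap, and it was higher in Cre by 2.17 ± 0.51 (log2 fold change ± SE from edgeR's quasi-likelihood test). The number of all genes without overlap was not counted. Gria2 was at 0.42 ± 0.34, and the other 8 had negative values. Gria3 was at −2.24 ± 0.86, Grik2 at −1.16 ± 1.34, Grin2b at −1.09 ± 0.73, Grin2a at −0.71 ± 1.39 and Grik5 at −0.67 ± 0.40. Grin1 was at −0.54 ± 0.44, Gria1 at −0.46 ± 0.93 and Gria4 at −0.30 ± 0.71. The median of the 10 was −0.61, beside 0.11 for all genes tested. All 10 passed the low-count filter and none was called at an adjusted p under 0.05, against 0.0141% of all 14189 genes (2 by edgeR, 217 by DESeq2). At an unadjusted p under 0.05 the count was 2 (Gria3 and Grik1), beside 684 of the 14189 genes, and DESeq2 called 1 member (Grik1). Gria1 turned to a positive value without control replicate 2, and Gria4 without control replicate 1.

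**Figure D3:**
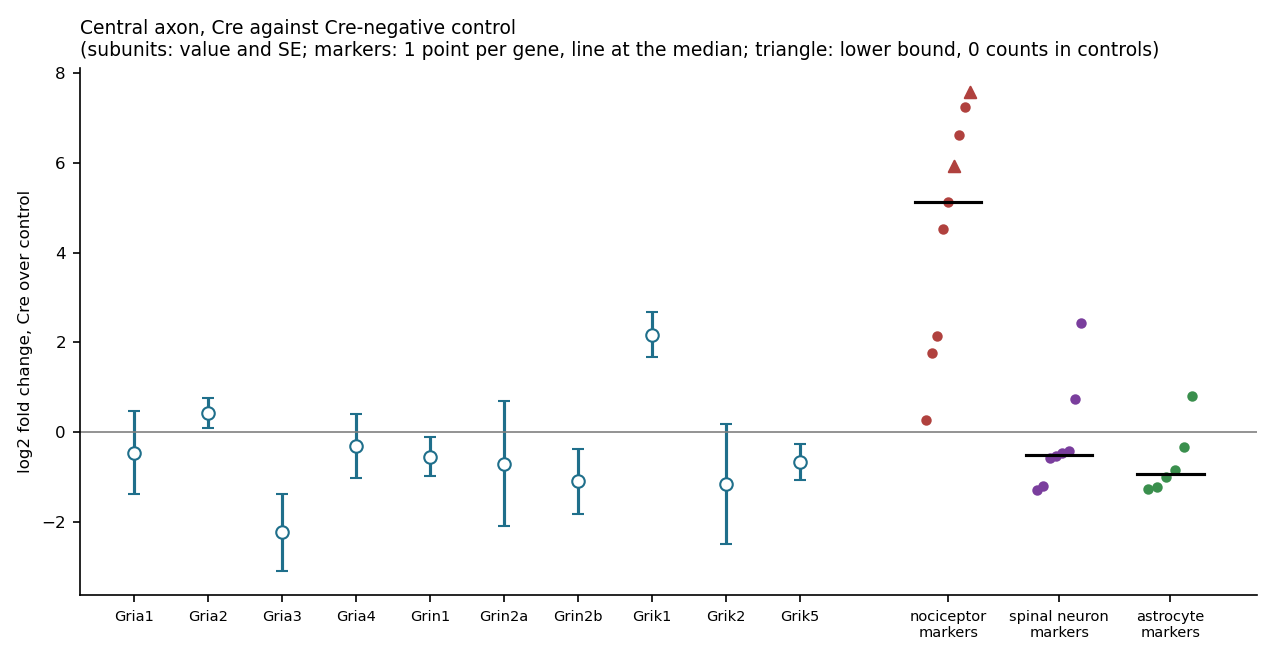
Log2 fold change of central axon Cre over control libraries, with SE bars, for the 10 subunit genes beside nociceptor, spinal neuron and astrocyte marker genes; triangles are lower bounds where the controls had no count and the horizontal lines are the medians of the marker groups. Grik1, at 2.17, and Gria2, at 0.42, are the subunits above 0, and the marker medians are 5.13, −0.50 and −0.92.

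All 9 nociceptor markers tested were positive in this comparison, with a median of 5.13. Scn10a was at 4.52 ± 1.72 with an adjusted p of 0.818 by edgeR, and Calca, the gene of the peptide CGRP, at 5.13 ± 1.27 with an adjusted p of 0.227. The 8 spinal neuron markers tested had a median of −0.50 with 2 positive, and the 6 astrocyte markers a median of −0.92. No gene of these lists was called by edgeR, while 7 nociceptor markers, no spinal neuron marker and 1 astrocyte marker had an unadjusted p under 0.05. Among the Cre central axon libraries, replicate 1 had both the highest Grik1 level (574 CPM) and the highest nociceptor sum (8668 CPM) and replicate 4 the lowest of both (143 and 1688 CPM), while replicates 2 and 3 were in opposite order. In peripheral axons the order of the libraries by Grik1 and by the nociceptor sum was the same, in the Cre group and in the controls. It was not in central axon controls or batch 1 Cre somas, where the library with the highest Grik1 (87.1 and 619.5 CPM) had the lowest sum (379.9 and 7205 CPM). The part of these cell types in the subunit values was not tested.

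In sciatic nerve, 9 of the 10 genes were tested between Cre and control and none was called, nor was any of all 13970 genes (0.0%), of which 514 had an unadjusted p under 0.05 and DESeq2 called 27. None of the 9 had an unadjusted p under 0.05, and DESeq2 called none of them. Gria4 was higher in Cre by 1.25 ± 0.97 with no overlap of libraries, and the number of all genes without overlap was not counted. The other 8 overlapped, with Grik2 at 1.18 ± 1.44, Grik1 at 0.85 ± 1.34, Grin1 at 0.27 ± 1.42 and Grik5 at 0.09 ± 0.61. Gria3 was at −0.30 ± 0.70, Gria2 at −0.38 ± 0.52, Gria1 at −0.94 ± 2.03 and Grin2b at −2.14 ± 2.21. Leaving out 1 library turned the sign of 6 of the 9: Gria1 without control replicate 1, Gria2 without control 4, Gria3 and Grin2b without control 2, Grin1 without Cre replicate 2, and Grik5 without Cre replicate 2 or 4 or control 2. The median was 0.09, beside 0.07 for all genes. Grin2a did not pass the filter, and its Cre mean was at least 3.13-fold higher than the controls, which had no count. Scn10a, at 155 ± 110 CPM in Cre and 55.2 ± 65.4 in controls, was itself spread widely in the control nerve.

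Control ganglia held these transcripts too. In batch 2, 8 of the 10 genes were tested and none was called, nor was any of all 15280 genes (0.0%), of which 2503 had an unadjusted p under 0.05 and DESeq2 called 1159. Grin2a and Grin2b did not pass the filter. The median of the 8 was 0.00, beside 0.06 for all genes, and Grik1 was at 0.29 ± 0.28, Grik5 at 0.39 ± 0.37, Grin1 at −0.23 ± 0.38, Gria1 at 0.24 ± 1.02, Gria4 at 0.43 ± 0.85 and Gria2 at −0.65 ± 0.78. Gria3 was at −1.78 ± 1.12 and Grik2 at −3.68 ± 1.12, the 2 largest values, both lower in Cre. Gria1 turned negative without Cre replicate 6 or control 7, Gria2 turned positive without control 6 and Grin1 without control 7. Grik2 was the member with an unadjusted p under 0.05, and it was called by DESeq2 and by edgeR without control replicate 5. Without that library edgeR called 1826 of all genes and without control replicate 7 it called 496, so that count moved with those controls.

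In batch 1, 6 of the 10 were tested between Cre and control somas and none was called, against 4.42% of all 11667 genes. None had an unadjusted p under 0.05, beside 1752 of all genes, and DESeq2 called none, beside 1878. The values were −1.89 ± 1.35 for Grik1, −1.59 ± 1.63 for Gria2, −0.55 ± 1.25 for Grik5, 0.35 ± 2.04 for Gria1, 0.47 ± 1.91 for Grin1 and 0.82 ± 1.88 for Gria4, with a median of −0.10 beside −0.45 for all genes. Control replicate 3 had a TMM factor of 0.0547, against 1.30 to 1.78 in the other libraries. Without it Grik1 was at −0.70 and Gria2 at −0.85, and under scaling by library size they were at −0.21 and −0.25. Gria1 turned negative without control a or b and Grik5 turned positive without control b. The large errors came with control libraries that differed among themselves: Grik1 was at 283, 142, 894 and 646 CPM, and Grin1 at 0.245, 0.647, 48.6 and 0 CPM, in replicates 1, 3, a and b. Gria3, Grik2, Grin2a and Grin2b did not pass the filter. For Gria3 and Grik2 the pooled Cre to control ratios were 43.9 (95% exact counting interval 11.8 to 367) and 26.5 (7.02 to 224), and for Gria3 all Cre libraries lay above all controls. Over all genes, the 516 calls became 3094 without control replicate 3 and 0 without control replicate 1, a or b.

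Central axons were compared with the somas of their batch, both Cre, to describe where the subunit RNA of tagged samples lay. The level was higher in central axons for 9 of the 10 genes, and the libraries did not overlap for 8, all but Grik1 and Grik5. How many of all genes had no overlap was not counted. By edgeR 8 of the 10 had an unadjusted p under 0.05, beside 4229 of all 14480 genes. Grin2b had the widest gap, a pooled ratio of 1656 (95% exact counting interval 458 to 13680) against 2 soma counts. Grin2a was at 4.01 ± 1.20, Gria2 at 3.74 ± 0.43, Grik2 at 2.77 ± 1.00 and Gria3 at 2.49 ± 0.83 on the log2 scale. Grin1 was at 1.28 ± 0.39, Gria1 at 1.26 ± 0.42, Gria4 at 0.93 ± 0.41 and Grik5 at 0.35 ± 0.37. Grik1 was lower in central axons, at −0.90 ± 0.46. All 10 passed the filter, with a median of 1.88 beside 0.05 for all genes, and 4 were called (Gria2, Grin1, Grin2a and Grin2b), against 13.7% of all 14480 genes.

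**Figure D4:**
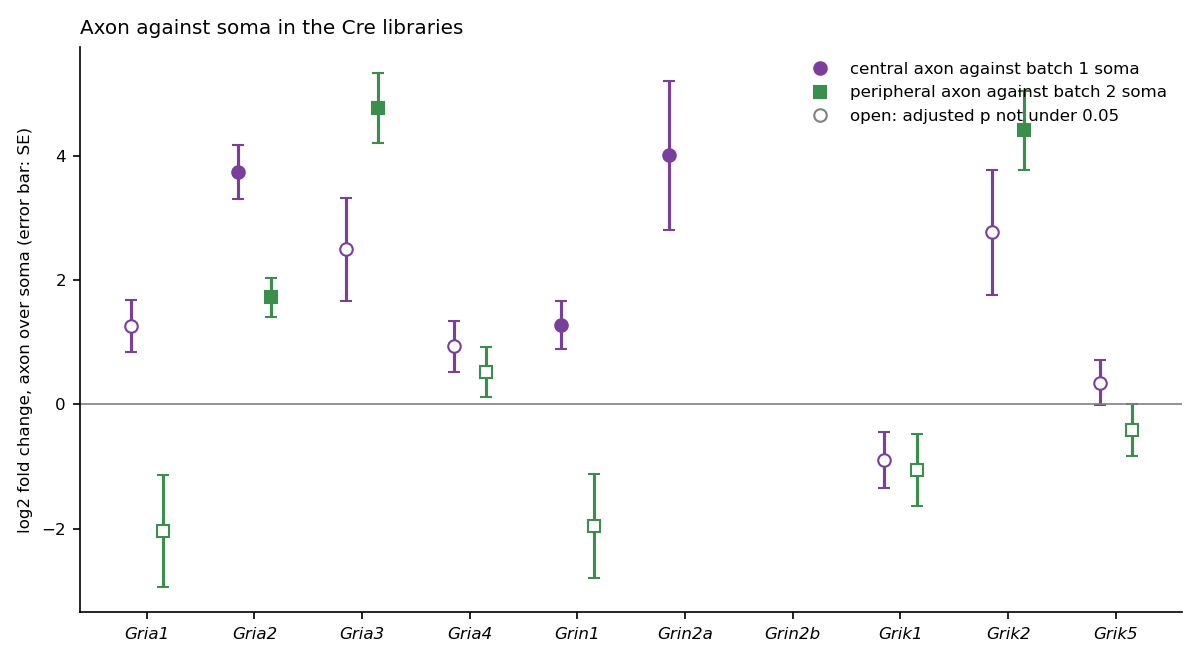
Log2 fold change of Cre axon over Cre soma libraries, with SE bars, for the subunit genes: circles for central axons against batch 1 somas and squares for peripheral axons against batch 2 somas, filled where edgeR's adjusted p was under 0.05. Grin2b is left out because the somas had hardly a count, and Grin2a was not tested in peripheral axons; Gria1 and Grin1 lie above 0 in central and below 0 in peripheral axons.

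Single libraries moved these calls. The 4 became 2 (Gria2 and Grin2b) without Cre central axon replicate 2 or 4 or Cre soma replicate 1. Grin1 was lost without central axon replicate 1, 2 or 4 or soma replicate 1, 3 or 4, and Grin2a without central axon replicate 2, 3 or 4 or soma replicate 1, 2 or 4. Without soma replicate 4, Gria1, Gria3 and Gria4 were called, and without central axon replicate 1 Grik1 was called lower, at −1.63. Over all genes the 1990 calls became 942, 1049 and 822 without central axon replicate 2, 3 or 4, and 1242 without soma replicate 1. Fitted with the controls in 1 model, only Grin2b was called. Central axon Cre libraries also differed from somas in cord markers: 7 of 8 spinal neuron markers and 5 of 6 astrocyte markers were called higher, while 5 of 9 nociceptor markers were called lower with a median of −1.57. The part of spinal cells in the subunit values was not tested.

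Peripheral axons were compared with the somas of batch 2, both Cre. Of 8 genes tested, 4 were higher and 4 lower, with a median of 0.06 beside −0.03 for all genes. Gria3 was higher by 4.78 ± 0.56, Grik2 by 4.41 ± 0.64 and Gria2 by 1.72 ± 0.32, with no overlap of libraries. These 3 were called, against 31.2% of all 15467 genes. Gria4 was at 0.52 ± 0.40. Lower values were found for Gria1 at −2.04 ± 0.90, with no overlap, Grin1 at −1.96 ± 0.83, Grik1 at −1.05 ± 0.58 and Grik5 at −0.41 ± 0.42. Grin2a and Grin2b did not pass the filter, and the pooled ratio of Grin2b was 161 (95% exact counting interval 27.9 to 6446) against 1 soma count. For Grin2b 2 of the 4 Cre axon libraries had no count, so the libraries overlapped with those of the somas.

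Without Cre peripheral axon replicate 1, 6 genes were called, with Gria1 (−1.72), Grik1 (−0.77) and Grin2a (2.44) added, beside 6055 of 16090 genes called over all. Without replicate 2, 5 were called, with Gria1 (−2.96) and Grin1 (−3.38) added, beside 5834 of 15858 genes. In the model with the controls only Gria3 remained, beside 1404 of 15717 genes. The nerve samples differed from somas in other cell types as well: all 6 Schwann cell markers and all 5 fibroblast markers were called higher, with medians of 6.23 and 4.16, and 7 of 9 nociceptor markers were called lower with a median of −1.73. Of the 9 spinal neuron markers, Slc32a1, Gad2, Slc6a5, Chat and Mnx1 had no count in any Cre peripheral axon library. Gad1, Pax2, Lhx1 and Slc5a7 did have counts in that group. The 9 summed to 0.730 to 27.1 CPM there and to 4.05 to 5.15 CPM in batch 2 Cre somas. The part of nerve cells in the subunit values was not tested.

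The controls, which lack the tag, were compared in the same way. Central axon controls against batch 1 soma controls gave 7 positive values and 1 negative among 8 genes tested. Grik1 was at −3.39 ± 1.24 with no overlap. Grin2b was at 8.30 ± 2.48, Gria2 at 3.03 ± 1.62, Grin1 at 2.95 ± 2.09, Gria4 at 2.64 ± 2.29, Gria1 at 2.51 ± 2.36 and Grik5 at 1.08 ± 1.49. The pooled ratio was 1633 (95% exact counting interval 452 to 13487) for Gria3 and 529 (146 to 4374) for Grik2, and Grin2a was at least 108-fold higher, where Grik2 and Grin2a did not pass the filter. For Grin2a 1 central axon control had no count, so the libraries overlapped with the soma controls, which had none. For Grik2 the lowest central axon control was at 0.123 CPM, close to the highest soma control at 0.117 CPM. The median of the 8 tested was 2.79 beside −0.16 for all genes. None was called, nor was any of all 9202 genes (0.0%), of which 1138 had an unadjusted p under 0.05 and DESeq2 called 394. Of the 8, 3 had an unadjusted p under 0.05 and DESeq2 called 3 (Gria3, Grin2b and Grik1).

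Peripheral axon controls against batch 2 soma controls gave 2 positive and 6 negative values among 8 genes tested, with a median of −0.44 beside −0.11 for all genes. Gria3 was higher by 3.22 ± 1.41 with no overlap and Gria2 by 1.37 ± 0.98. Grin1, at −2.61 ± 0.85, and Grik1, at −1.67 ± 1.26, were lower with no overlap. Gria1 was at −0.93 ± 2.12, Grik2 at −0.53 ± 1.85, Gria4 at −0.35 ± 1.52 and Grik5 at −0.21 ± 0.65, and the pooled ratio of Grin2b was 55.5 (95% exact counting interval 23.3 to 174). That ratio rested mainly on axon control replicate 2 (22.0 CPM), with 1.1 and 0 CPM in the others, and the groups overlapped. None of the 8 tested was called, against 0.0802% of all 13715 genes. By edgeR 2 had an unadjusted p under 0.05, beside 1341 of all genes, and DESeq2 called 1 (Grin1), beside 607. Gria4 turned positive without soma control 6, Grik2 without axon control 4 or soma control 7, and Grik5 without axon control 2. The 11 calls over all genes became 43 without axon control replicate 1, 18 without replicate 4 and 0 without replicate 2 or without any of the 4 soma controls. The mean of Gria3 was therefore above, and those of Grin1 and Grik1 below, the ganglion mean in nerve with and without the tag.

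Axon type and batch cannot be told apart in a direct comparison, so the axon-to-soma differences of the Cre libraries were subtracted, central minus peripheral. Gria1 had a difference of 3.46 ± 0.93, Grin1 of 3.39 ± 0.97 and Gria2 of 2.19 ± 0.50. These 3 of 10 genes were called, against 13.1% of all 16725 genes. Gria1 and Grin1 were above somas centrally and below them peripherally, and Gria2 was above them in both, by more centrally. In the controls described above, which lack the tag, these 3 genes had the same signs in both axon types, and none of them was called. The other values of the Cre difference were 3.99 ± 3.50 for Grin2b, whose somas held 2 counts and 1 count, 2.10 ± 1.59 for Grin2a, 0.94 ± 0.58 for Grik5, 0.57 ± 0.58 for Gria4 and 0.32 ± 0.77 for Grik1. Gria3, at −2.10 ± 1.02, and Grik2, at −1.52 ± 1.18, had negative values and were not called. The median was 1.52 beside 0.26 for all genes. Grin1 was lost without Cre central axon replicate 4, Cre soma replicate 3, 4 or 8, Grin2a was gained without soma replicate 3 (5.00), and the 2187 calls over all genes became 1394 without soma replicate 8. Grik1 turned negative without central or peripheral axon replicate 1. Markers of other cells differed as well: 5 of 6 astrocyte markers (median 6.59) and 2 of 8 spinal neuron markers (median 8.06) were called higher, all 6 Schwann cell markers (−5.78) and all 4 muscle markers tested (−4.86) lower, and none of 9 nociceptor markers by edgeR, with 1 at an unadjusted p under 0.05. Their part in the subunit values was not tested.

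The 8 further subunits were read with their adjusted p-values from the same edgeR fits. Between central axons and somas of the Cre libraries 5 were tested and 2 were called, both NMDA subunits, against 13.7% of all 14480 genes. Grin2d was at 34.0, 61.8, 24.1 and 115 CPM in Cre central axons and at 1.38 to 9.79 CPM in somas, a log2 difference of 3.30 ± 0.61 (adjusted p = 0.00521). Grin3a, which lowers calcium entry through NMDA receptors, was at 32.9, 68.4, 41.1 and 52.6 CPM against 8.6 to 11.9 CPM, a difference of 1.75 ± 0.36 (adjusted p = 0.00858). Grik3 was at 2.62 (adjusted p = 0.0608) and Grik4 at −0.64. Between peripheral axons and somas of the Cre libraries 6 were tested, 1 was called higher and 1 lower, against 31.2% of all 15467 genes. The lower one was Grik4, at −1.55 ± 0.54 (adjusted p = 0.0486). Its call was lost under scaling by library size (adjusted p = 0.0863) and in 6 of the 8 refits that left out 1 library. Those were all but the refits without peripheral axon replicate 1 or 2, with adjusted p from 0.0539 to 0.116. Central minus peripheral, Grin2d differed by 4.32 ± 1.18 (adjusted p = 0.0212) and Grin3a by 1.91 ± 0.55 (adjusted p = 0.0268). These were 2 of 6 tested, against 13.1% of all 16725 genes. The Grin2d call was lost without central axon replicate 4 (adjusted p = 0.0618), and that of Grin3a without central axon replicate 2 or 4 or soma replicate 1, 2, 7 or 8 (adjusted p from 0.0526 to 0.0682). Between Cre and control central axons none of 6 tested was called and none had an unadjusted p under 0.05, with Grin3a at −1.05 and Grik4 at 0.88.

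Genes that work with the receptors were counted from 5 lists. Of 15 auxiliary subunits, which set the trafficking and gating of AMPA and kainate receptors, 5 were called higher in Cre central axons than in somas, where 1250 of all 14480 genes were, among them Cacng4 (3.03, adjusted p = 0.000759), Cacng2, the TARP stargazin (3.23, adjusted p = 0.00311), and Shisa7 (2.17, adjusted p = 0.0232), by edgeR. In Cre peripheral axons none of 12 tested was called higher and 2 were called lower, Cnih2 (−2.78, adjusted p = 0.000812) and Cacng3 (−3.33, adjusted p = 0.0497), beside 31.2% of all genes called in either direction. Central minus peripheral, 6 of 15 were called, all positive, beside 13.1% of all genes in either direction, including Cacng2 (6.35, adjusted p = 0.0019) and Cnih2, a cornichon that slows AMPA receptor closing (3.87, adjusted p = 0.00187). Of 14 scaffold and trafficking genes, 5 were called higher centrally, beside the same 1250 of 14480, with Shank2 at 4.73 (adjusted p = 0.00105), Dlg3, which encodes SAP102, at 3.46 (adjusted p = 0.00454) and Shank1 at 3.09 (adjusted p = 0.00511). In nerve 1 of the 14 was called, beside 31.2% of all genes: Dlg1, which encodes SAP97, was higher (3.08, adjusted p = 0.000574).

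Of the metabotropic receptors, which signal through G proteins, 3 of 7 tested were called higher in Cre central axons, where 13.7% of all genes were called in either direction, among them Grm5 (5.49, adjusted p = 0.00011) and Grm2 (4.83, adjusted p = 0.0224), and none of 4 tested in nerve, where 1 had an unadjusted p under 0.05 and 31.2% of all genes were called. Of 9 genes of glutamate supply and uptake, the transporters Slc1a2 (6.15, adjusted p = 0.00101), Slc1a1 (5.21) and Slc1a3 (5.29, both adjusted p = 0.00311) were called higher centrally. In nerve Slc1a3 was higher (3.01, adjusted p = 0.0128) and Slc17a6, the vesicular transporter VGLUT2, lower (−1.60, adjusted p = 0.00999). Of the 3 genes of the adenosine deaminase family, Adarb1, which edits the Gria2 Q/R site, averaged 57.5 CPM in Cre central axons and 60.0 CPM in batch 1 Cre somas (−0.49, adjusted p = 0.357), and Adarb2 was called higher centrally (5.74, adjusted p = 0.0103). Between Cre and control central axons none of these lists had a called gene, with medians of −0.52 for auxiliary, −0.41 for scaffold, −0.45 for metabotropic, −0.60 for supply and 0.40 for editing genes. At an unadjusted p under 0.05 the counts by edgeR were 1 auxiliary and 1 scaffold gene. Slc1a2 is also a marker of astrocytes, whose markers summed to 883 ± 431 CPM in Cre central axons and 1612 ± 496 in their controls (SD, n = 4 each), and the part of those cells was not tested.

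The genes most like each subunit across the 8 group means of log2(CPM + 1) were listed by Pearson's r, as a description over 8 points that share libraries and depth. Grin2b was followed by Fzd9 (0.989), Prox1 (0.987) and Lbx1 (0.985). Gria2 was nearest to Ephb1 (0.974), Gria4 to Hoxc8 (0.997), Gria1 to Kifc2 (0.985), Grin1 to 2610021A01Rik (0.992) and Grin2a to Stag3 (0.996). Gria3 was nearest to Ddx39 (0.993), Grik2 to Plce1 (0.993), Grik5 to Lmtk3 (0.982) and Grik1 to Kcnj11, a potassium channel gene (0.981).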

How the data were processed

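RNA from ribosome pulldowns was made into libraries with a SMART-Seq v4 kit, per the labels' protocols, from less than 100 pg for axons and 1 ng for somas. The authors deposited 2 tables of raw counts per gene, 1 per batch and 1 column per library, per the file headers. STAR 2.7.2b and mm10 are named in the submitters' processing notes; the counting program, its use of strand and its handling of duplicate reads are not given in the sources used here. Gene IDs were matched to GENCODE M21 (GRCm38) for symbols, exon lengths and positions. Groups came from genotype, tissue and batch. In batch 1, 2 soma control columns share a header, so they are known by group only and called a and b. No sample column was left unused (0). All 45 pairs of libraries within groups differed by more than sampling noise.

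Each of 9 comparisons was fitted on all genes of its groups with edgeR 4.0.16 in R 4.3.3 (filterByExpr with a minimum count of 10 and total of 15, TMM scaling, quasi-likelihood test, Benjamini-Hochberg over all genes, threshold 0.05), a script tested on simulated data. Alternatives were RLE and library size scaling, no filter, DESeq2 1.42.0, a fit of all 4 groups of a batch, the replicate number as a block, and leaving out each library. Counting intervals (95%, exact) and the floor of 3 counts cover counting error only, not the spread between libraries. The share of all genes without overlap of libraries was not counted in any comparison. The members and lists were chosen with earlier results of these data known. Named were all 10 members, the other subunits, up to 3 called genes per pathway list with the smallest adjusted p, the marker lists, and the 3 genes most like each member among those with a mean of at least 5 CPM. A few items that this rule covers are not reported here.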

Additional observations from a re-analysis of the deposited data

Results flagged for a closer look

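A test for a value far from the others marks about 1 in 20 sets by chance. That rate need not hold for sets where most values are 0 or close to it. Of 69 sets of 4 libraries (a gene in a group) tested, 7 were marked. They were Gria1 in batch 1 soma control replicate 1 (48.0 CPM), Gria3 in Cre central axon replicate 4 (50.6 CPM), Gria4 and Grin1 in batch 1 soma control a (21.1 and 48.6 CPM), Grin1 in batch 2 soma control replicate 7 (90.5 CPM), Grin2a in batch 1 Cre soma replicate 3 (3.37 CPM) and Grin2b in batch 2 Cre soma replicate 6 (0.0643 CPM, a single count). The difference between the central and the peripheral axon-to-soma change of the Cre libraries passed edgeR's adjusted threshold for 5 subunits, Gria1 (3.46), Gria2 (2.19), Grin1 (3.39), Grin2d (4.32) and Grin3a (1.91), on the log2 scale. Of all 16725 genes, 13.1% passed it. Leaving out 1 of the 16 libraries ended the call of Grin1 in 4 refits, of Grin3a in 6 and of Grin2d in 1 (central axon replicate 4). Each axon type belonged to its own batch, so any effect of batch on axons alone and the axon type cannot be told apart.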

How the results depend on the processing

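The number of the 10 subunits called changed with the processing in most comparisons, and the cause was not tested. DESeq2 called 1 against 0 in central axons Cre against control, 1 against 0 in batch 2 somas, 3 against 0 in central axon controls against soma controls, 1 against 0 in peripheral axon controls against soma controls, and 5 against 3 in Cre peripheral axons against somas. Fitting all 4 groups of a batch gave 1 against 0 in batch 1 somas, 1 against 4 in Cre central axons against somas, 1 against 3 in Cre peripheral axons against somas and 6 against 0 in central axon controls against soma controls. Library size scaling gave 7 against 4 in Cre central axons against somas, and no low-count filter gave 5 against 3 in Cre peripheral axons against somas. Leaving out 1 library gave 2 to 5 in Cre central axons against somas, 3 to 6 in Cre peripheral axons against somas, 2 to 3 in the central minus peripheral difference and 0 to 1 in batch 2 somas. The 9 genes with their highest mean in a central axon group were also 9 with TMM-scaled CPM. Over all refits of single genes, no member changed direction in the Cre axon-to-soma comparisons (140 and 104 refits), and 16 calls were lost and 14 gained in the central one. In the Cre against control comparisons members changed direction in 3 of 140 refits in central axons, 10 of 115 in peripheral axons, 5 of 84 in batch 1 somas and 6 of 112 in batch 2 somas. Over all genes, calls moved from 2 to 217 with DESeq2 and 34 with no filter in central axons Cre against control, where leaving out a library gave 0 to 5. In peripheral axons they moved from 0 to 27 with DESeq2 and 1 with all groups. In batch 1 somas they moved from 516 to 2244 with library size scaling, 1700 with no filter, 1878 with DESeq2, 2114 with all groups and 0 with the replicate block. In batch 2 somas they moved from 0 to 21 with RLE, 257 with library size scaling, 162 with no filter, 1159 with DESeq2 and 175 with all groups. In Cre central axons against somas they moved from 1990 to 3143 with DESeq2 and 15 with all groups, and in Cre peripheral axons from 4818 to 1404 with all groups. In central axon controls against soma controls they moved from 0 to 5 with library size scaling, 46 with no filter, 394 with DESeq2 and 3855 with all groups. In peripheral axon controls they moved from 11 to 268 with no filter, 607 with DESeq2 and 526 with all groups, and in the central minus peripheral difference from 2187 to 3290 with DESeq2. Library size scaling moved the median log2 change of all genes from 0.05 to 0.50 in Cre central axons against somas, and the calls that were higher from 1250 of 1990 to 2146 of 2439. It moved that median from −0.45 to 0.36 in batch 1 somas, from −0.03 to 0.17 in Cre peripheral axons and from 0.06 to −0.20 in batch 2 somas. Libraries with the same replicate number correlated between −0.12 and 0.21 and never all above 0.1, so the numbers were not taken as pairs; with the replicate block the calls among the 10 were 6 in Cre central axons against somas and 0 in the other comparisons where it could be fitted, and the block turned the direction of Gria1 in central and peripheral axons Cre against control, of Gria1 and Gria2 in batch 1 somas, of Gria2 in batch 2 somas and of Gria1 in central axon controls against soma controls. Counts at or under 3 limit Grin2a and Grin2b in somas.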
